A study of Homo sapiens with 6 samples.

Results

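This section describes 10 genes that encode enzymes and carriers of the cell's defence against superoxide, peroxides and oxidised thiols: SOD1, SOD2, SOD3, CAT, GPX1, GPX4, PRDX1, TXN, TXNRD1 and NQO1. They were chosen by symbol from the 61541 genes of the count tables, with earlier results of these data known. Each symbol matched a single Ensembl gene. RNA came from RCC4, an established line of clear cell renal carcinoma that lacks a working VHL gene, and all libraries share that background. One group of 3 cultures was left untreated. A second group of 3 cultures received 2 cytokines for 24 h, interferon gamma (IFNγ, 1000 U/mL) and tumour necrosis factor (TNF, 25 ng/mL). Each culture pooled 3 flasks, and poly(A) RNA was read as native molecules on a nanopore. Since both were given at once, their separate effects cannot be told apart. Values are reads per gene scaled to library size as CPM with TMM factors, given as mean ± SD with n = 3 libraries a group.

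Superoxide dismutases turn superoxide into hydrogen peroxide: SOD1 in the cytosol with copper and zinc, SOD2 in the mitochondrial matrix with manganese, and SOD3 outside the cell. Catalase, glutathione peroxidases and peroxiredoxins then remove the peroxide, and thioredoxin with its reductase, or glutathione, returns the electrons. NQO1 and several of the thiol enzymes are classical targets of the transcription factor NRF2, whereas SOD2 is a classical target of NF-kappaB, which acts through an enhancer inside the gene.

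Promoter sequence is shown for SOD2 because it was the only member of the 10 whose RNA passed the test, and for TXNRD1 because its windows alone among those of the members held the core of the antioxidant response element. RefSeq windows of 300 bases (GRCh38.p14) existed for 8 of the 10 members, 14 windows in all. The stretches printed lie outside the annotated exons within 1 window each, 5′ to 3′ on the gene's strand. That of TXNRD1 lies upstream of the whole gene model. That of SOD2 lies inside the span of the gene model (159669069 to 159762529), and other SOD2 windows lie further upstream. They are chr6:159693279-159693491 on the minus strand for SOD2 and chr12:104215529-104215778 on the plus strand for TXNRD1. Capitals mark GC boxes (GGGCGG, either strand, overlaps counted) in SOD2 and the response element core (TGACNNNGC, either strand) in TXNRD1.

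SOD2: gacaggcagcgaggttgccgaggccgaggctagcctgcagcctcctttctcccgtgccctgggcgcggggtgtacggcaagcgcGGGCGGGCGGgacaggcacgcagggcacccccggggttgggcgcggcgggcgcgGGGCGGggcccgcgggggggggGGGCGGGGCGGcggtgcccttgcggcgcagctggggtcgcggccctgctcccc

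TXNRD1: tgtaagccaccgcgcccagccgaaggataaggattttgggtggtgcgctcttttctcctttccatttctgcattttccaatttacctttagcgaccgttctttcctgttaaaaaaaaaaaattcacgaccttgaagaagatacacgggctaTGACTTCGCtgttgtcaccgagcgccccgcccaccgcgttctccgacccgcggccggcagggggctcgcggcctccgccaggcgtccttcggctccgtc

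The SOD2 stretch of 213 bases holds 5 GC boxes. In order of coordinate, the 4 SOD2 windows hold 6, 1, 4 and 1 GC boxes, with 78.3%, 69.3%, 77.3% and 68.0% G and C. The first of these is the window printed in part, and it holds the most GC boxes. A GC box is common, being present in 45.0% of all 35116 windows. None of the 4 SOD2 windows held a match to the NF-kappaB consensus, the interferon gamma activated site (TTCNNNGAA) or the interferon-stimulated response element. Over all windows these matches occur in 11.3%, 7.66% and 3.57%. The last of these also occurs in 1 TXNRD1 window. Both TXNRD1 windows held the antioxidant response element core (2 matches in the window printed in part, 1 of them in the stretch shown), which 13.3% of all windows hold, and the NQO1 window held none. Sequence outside these windows, including the intragenic enhancer of SOD2, was not analysed here.

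Of the 9 members that passed the filter on low counts, 1 was called, namely SOD2 (edgeR quasi-likelihood test, Benjamini-Hochberg adjustment over 10067 genes, threshold 0.05). Over all genes tested, 8.14% passed the same threshold, 5.58% higher and 2.55% lower. SOD2 was also the only member whose groups did not overlap, against 25.9% of all genes tested. The tenth member, SOD3, did not pass the filter. Its counts were 0 in the 3 untreated libraries and 0, 0 and 2 in the treated ones. These lie within the limit of 3 counts that a count of 0 allows (0.681 to 0.827 CPM by library before TMM factors).

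SOD2 (ENSG00000112096; GRCh38 chromosome 6, 159669069 to 159762529, minus strand) stood at 75.6, 72.3 and 116 CPM in the untreated libraries. In the treated libraries it stood at 1319, 1639 and 2966 CPM. The lowest treated library lay more than 10 times above the highest untreated one, and replicate 3 was the highest of its group on both sides. From 88.0 ± 24.5 to 1975 ± 873 CPM, the log2 fold change was 4.48 (95% interval 3.67 to 5.30), a 22.4-fold rise with an interval from 12.7-fold to 39.4-fold (edgeR adjusted p 8.16e-05). By mean CPM, SOD2 ranked 1752 of the 10067 tested genes in untreated cells and 83 in treated cells. Of all tested genes, 88 had a larger fitted log2 fold change, so SOD2 ranked 89. In bulk RNA, a rise in every cell and a rise in a fraction of the cells cannot be told apart. 

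The size of the SOD2 rise moved with treated replicate 3: without it the log2 fold change was 4.07, and with all other alternatives run it stayed between 4.36 and 4.74. All 13 alternatives that kept the gene called it higher. Reads were counted by strand. On that strand, 5.18% of the exonic bases of SOD2 are shared with SOD2-OT1, a long noncoding RNA with 0 counts in all 6 libraries. None of the 500 bases nearest to the 3′ end of SOD2 were shared.

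**Figure D1:**
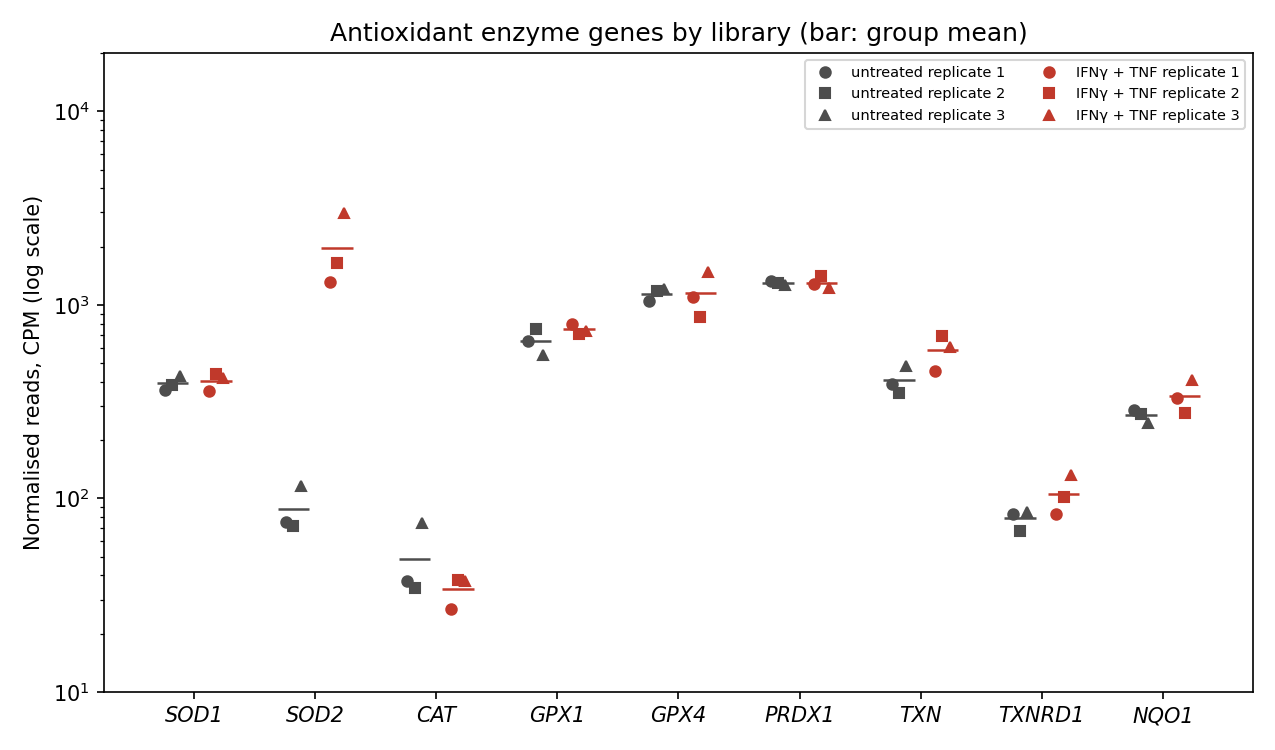
Normalised reads in CPM (log scale) for the 9 tested members, one point for each library, with shapes for replicates 1 to 3 and a short bar at the group mean. SOD2 rises from between 72.3 and 116 CPM to between 1319 and 2966 CPM, while the groups of the other 8 genes overlap; SOD3, with 0 counts in 5 libraries, is not drawn.

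SOD1, the cytosolic partner of SOD2 (chromosome 21, 31659666 to 31668931), had 363, 384 and 430.3 CPM in untreated and 359.9, 439 and 419 CPM in treated libraries. The groups overlapped throughout, at 393 ± 34.2 and 406 ± 40.9 CPM. Its log2 fold change of 0.05 had a 95% interval from -0.33 to 0.42, so this depth and spread exclude neither a small rise nor a small fall (edgeR adjusted p 0.934).

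Because both dismutases were read in the same libraries, their ratio does not depend on library scaling. SOD2 supplied 17.2%, 15.8% and 21.3% of all superoxide dismutase reads (SOD1, SOD2 and SOD3 together) in untreated libraries. In treated libraries it supplied 78.6%, 78.9% and 87.6%. By number of reads, the dominant dismutase RNA was thus SOD1 in each untreated library and SOD2 in each treated one. Exact binomial (Clopper-Pearson) 95% intervals, which cover counting error only, ran from 14.2% to 23.0% over the untreated and from 77.5% to 88.2% over the treated libraries. The mean share differed by 63.6 percentage points (18.1% ± 2.82 against 81.7% ± 5.14), and the 2-sided exact permutation p was 0.1, which is the floor for groups of 3. On the log2 scale the ratio of SOD2 to SOD1 reads was -2.19 ± 0.27 in untreated and 2.20 ± 0.54 in treated libraries, that is 0.219 and 4.60 SOD2 reads for each SOD1 read.

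**Figure D2:**
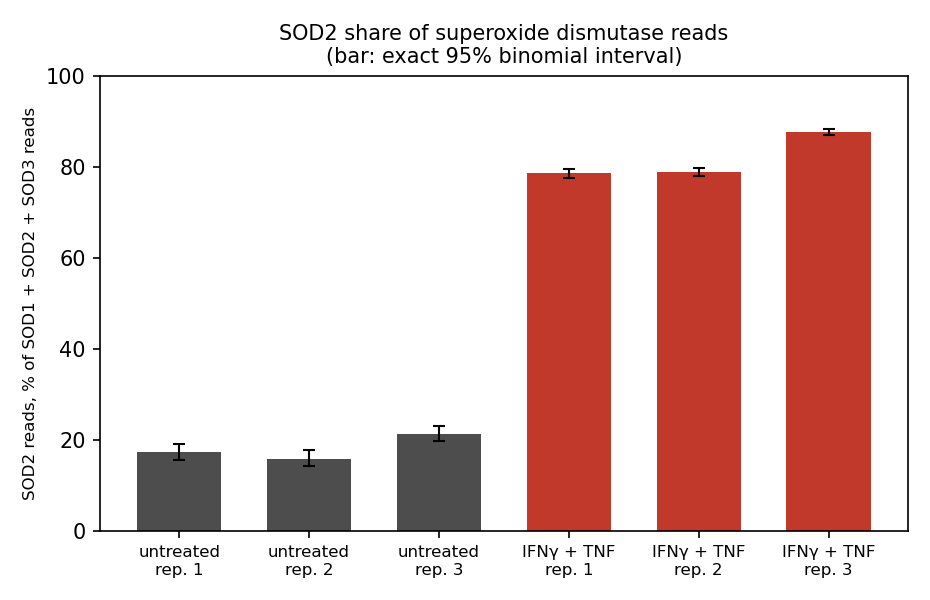
Share of superoxide dismutase reads that came from SOD2 (percent, axis from 0 to 100) in each library, with exact 95% binomial intervals. The 3 untreated libraries lie between 15.8% and 21.3% and the 3 treated ones between 78.6% and 87.6%.

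The peroxide-removing enzymes showed no call. CAT, the haem enzyme of peroxisomes that splits hydrogen peroxide (chromosome 11, 34438934 to 34472060), had 37.3, 34.5 and 74.8 CPM in untreated and 26.8, 38.0 and 37.2 CPM in treated libraries. Untreated replicate 3 stood apart, with nearly 2 times the level of any other library. CAT was the only tested member with a negative log2 fold change, -0.53 (95% interval -1.25 to 0.19, edgeR adjusted p 0.437), and that value became -0.09 without untreated replicate 3.

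GPX1, the abundant cytosolic glutathione peroxidase (chromosome 3, 49357176 to 49358353), had 651, 752 and 552 CPM in untreated and 796, 710.4 and 732 CPM in treated libraries. The treated values sat within a narrower band than the untreated ones, and the bands overlapped (log2 fold change 0.19, 95% interval -0.19 to 0.58, edgeR adjusted p 0.634). GPX4, the peroxidase that reduces lipid peroxides within membranes and protects from ferroptosis (chromosome 19, 1103994 to 1106791), had 1043, 1173 and 1214 CPM in untreated libraries. Its treated values of 1094, 867 and 1481 CPM spanned the whole untreated range, so the means were nearly equal at 1143 ± 89.1 and 1148 ± 310.5 CPM. The log2 fold change of 0.00 carried a 95% interval from -0.47 to 0.47 (edgeR adjusted p 0.997). Both enzymes are selenoproteins.

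PRDX1, a cytosolic peroxiredoxin that takes its electrons from thioredoxin (chromosome 1, 45510914 to 45542732), had the smallest spread of the 9 tested members among untreated libraries. Its levels were 1325, 1289 and 1268 CPM there, with a coefficient of variation of 2.20%. Treated libraries held 1278, 1404 and 1219 CPM and enclosed the untreated values. Its log2 fold change of 0.01 had a 95% interval from -0.32 to 0.33 (edgeR adjusted p 0.993).

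The thioredoxin pair had positive differences that did not pass the test. TXN, the small dithiol carrier thioredoxin (chromosome 9, 110243810 to 110256507), had 391.8, 349 and 482 CPM in untreated and 454, 694 and 607 CPM in treated libraries. Treated replicates 2 and 3 lay above every untreated library, and treated replicate 1 lay below untreated replicate 3. The log2 fold change was 0.52 with a 95% interval from 0.05 to 0.99, and p was 0.0345 before and 0.204 after edgeR's adjustment over all genes. Over 14 alternatives the adjusted p ran from 0.0534 to 0.534.

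TXNRD1, the cytosolic selenoprotein that reduces thioredoxin with NADPH (chromosome 12, 104215779 to 104350307), had 83.4, 68.2 and 85.2 CPM in untreated libraries. It had 83.1, 101 and 131 CPM in treated ones, where replicate 1 fell inside the untreated range (log2 fold change 0.41, 95% interval -0.07 to 0.90, edgeR adjusted p 0.341). Within libraries the log2 ratio of TXNRD1 to TXN reads was -2.36 ± 0.13 in untreated and -2.48 ± 0.29 in treated cells (exact permutation p 0.7). NQO1, a quinone reductase that uses NADH or NADPH (chromosome 16, 69706996 to 69726668), had 287, 272 and 245 CPM in untreated and 330.3, 278 and 408 CPM in treated libraries. Its treated replicate 2 lay below untreated replicate 1, and the log2 fold change of 0.33 had a 95% interval from -0.09 to 0.76 (edgeR adjusted p 0.391).

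Of the 4 within-library ratios compared, only that of SOD2 to SOD1 had groups that did not overlap. The log2 ratio of GPX4 to GPX1 was 0.82 ± 0.28 and 0.59 ± 0.38 (exact permutation p 0.4), and that of NQO1 to TXNRD1 was 1.77 ± 0.24 and 1.69 ± 0.27 (exact permutation p 0.7). After adjustment over the 4 ratios these exact permutation p values were 0.4 for SOD2 to SOD1 and 0.7 for the other three.

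**Figure D3:**
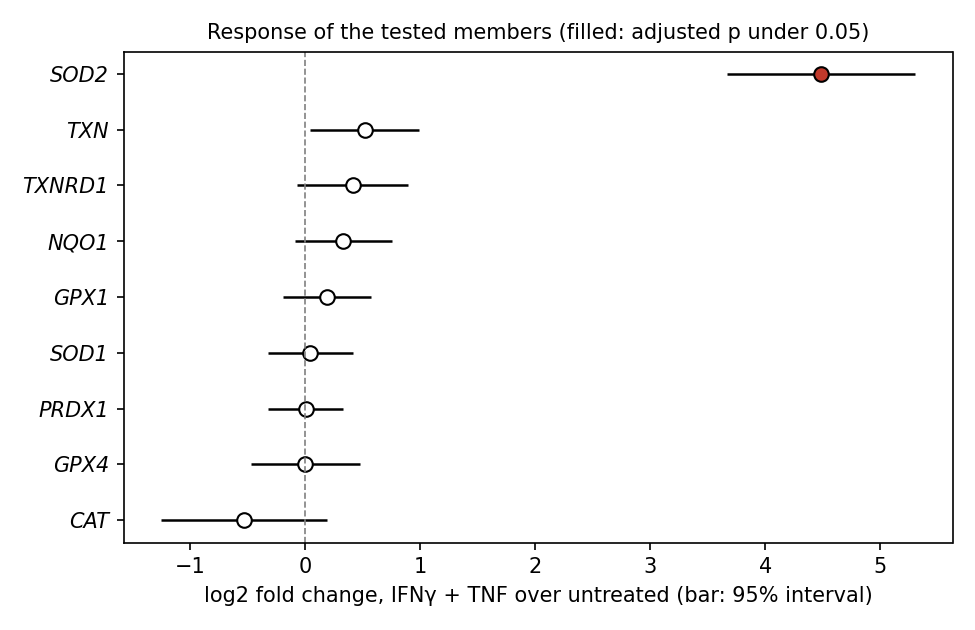
Log2 fold change (IFNγ and TNF over untreated) of the 9 tested members with its 95% interval from the edgeR fit, filled where the adjusted p is under 0.05. SOD2 stands at 4.48, and the other 8 lie between -0.53 for CAT and 0.52 for TXN.

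Levels of different genes were compared per kilobase of annotated exon. PRDX1 had the highest mean in both groups, at 769 ± 16.9 CPM per kb in untreated and 773 ± 56.2 CPM per kb in treated cells. GPX4, GPX1, TXN, SOD1 and NQO1 followed in untreated cells, with CAT, TXNRD1, SOD2 and SOD3 below them. Neighbours whose untreated libraries overlapped were GPX4 with GPX1, GPX1 with TXN, and CAT with TXNRD1. SOD2 moved from rank 9 of 10, at 4.85 ± 1.35 CPM per kb, to rank 7, at 109 ± 48.1 CPM per kb. In treated cells the range of PRDX1 overlapped that of GPX4, which was higher in replicate 3 (759 against 725 CPM per kb), GPX1 overlapped GPX4, and GPX4 overlapped TXN. The treated range of SOD2 overlapped that of NQO1, the neighbour above it (114 ± 22.0 CPM per kb). The gene model of SOD2 spans 18.1 kb of exon against 1.01 to 6.71 kb for the others, which lowers its value on this scale. Per kilobase, SOD1 stayed above SOD2 in every treated library (205 ± 20.7 against 109 ± 48.1 CPM per kb), the reverse of their order by reads. A read here is 1 RNA molecule whatever its length, so ranks per kilobase are not ranks by number of molecules. On the plain CPM scale SOD2 had the highest mean of the 10 members in treated cells.

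As a group the 10 members held 0.422%, 0.443% and 0.499% of all reads counted to genes in untreated libraries. In treated libraries they held 0.524%, 0.623% and 0.777%. SOD2 alone made up 23.0% to 37.1% of the members' reads in treated libraries, against 1.65% to 2.60% in untreated ones. Without SOD2, the other 9 members held 0.445% ± 0.037 and 0.450% ± 0.043 of reads, which differed by less than the spread between replicates (2-sided exact permutation p 0.9).

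Pseudogenes of the members, found by symbol, held almost no counts. The counting settings name no option for multi-mapping reads, so these counts cannot show whether reads shared with a copy were lost. By symbol, 14 pseudogenes of SOD1, SOD2, GPX1, PRDX1 and TXN were listed, with 4 counts among them over the 6 libraries, against 128768 counts for the 10 members.

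The spread of SOD2 among treated libraries was wide, with a coefficient of variation of 44.2%, and 5.40% of the 6744 tested genes averaging 10 CPM or more had a larger one. The median over those genes was 17.1%. By Pearson correlation of log2 CPM over the 6 libraries, which share the 2 groups, the genes most like SOD2 were NUB1, STOM, ATP9B, TMEM140 and RFX5, with r from 0.996 to 0.999. NUB1, which encodes an interferon-inducible partner of the ubiquitin-like protein NEDD8, went from 40.0 ± 6.88 to 178 ± 31.9 CPM with treatment, and TMEM140 from 0.873 ± 0.615 to 57.2 ± 18.1 CPM. RFX5, a factor of class II antigen presentation genes, had a log2 fold change of 0.71 close to the threshold (edgeR adjusted p 0.0470). That call was lost in 8 of 14 alternatives, among them the fits without untreated replicate 1 or 2 or any 1 treated replicate (adjusted p up to 0.194). ATP9B, at 0.53, did not pass the test (edgeR adjusted p 0.225). These genes share the pattern over libraries, not the size of the change. Among the members, TXN (0.811), TXNRD1 (0.784) and NQO1 (0.720) had the highest r with SOD2.

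A second measure removed the group means and correlated what was left over the same 6 libraries. The genes most like SOD2 were then SNX9, PIR, UXS1, LHFPL2 and H2BC12, with r from 0.995 to 0.999, and none of these 5 passed the test between groups. By either measure, the 5 genes named are the highest of 6743 correlations over only 6 libraries. Whether r this high exceeds what such a selection gives was not tested. PIR, which encodes pirin and is on the list of NRF2 targets, had 15.4, 14.2 and 25.1 CPM in untreated and 13.2, 16.4 and 34.6 CPM in treated libraries. Both groups had their highest value in replicate 3, as SOD2 did. TXNRD1 had the highest such r among the members, 0.896, at rank 241 of 6743 genes.

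The other genes of the pathway were taken from 10 lists with 133 genes, of which 90 were tested. Of these, 8 were higher and 2 lower in treated cells, against 5.58% and 2.55% of all genes tested, and the median log2 fold change was 0.09 against -0.03 over all tested genes. No gene was called among the superoxide sources (4 of 20 tested), the other peroxidases (6 of 11), NADPH supply (12 of 12), selenoprotein synthesis (6 of 8) or the supply of copper and manganese to the dismutases (7 of 10). Without untreated replicate 3, 1 gene was called in each of these lists except the other peroxidases.

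**Figure D4:**
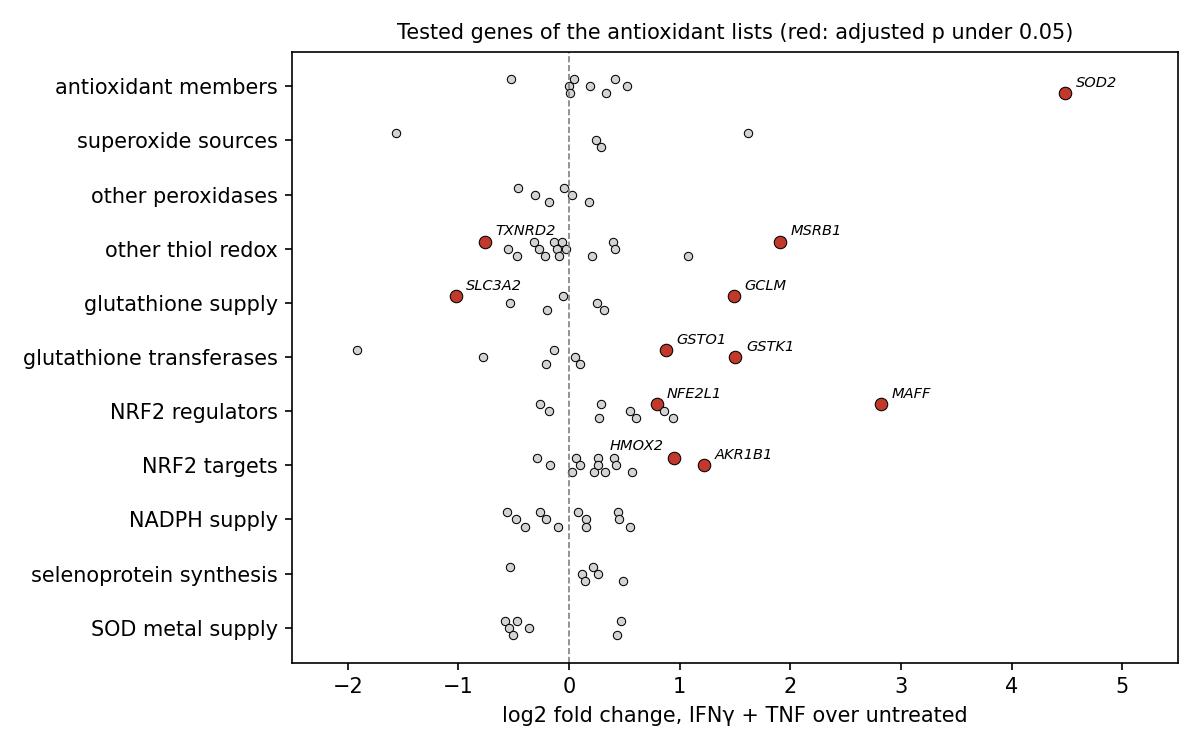
Log2 fold change (IFNγ and TNF over untreated) of every tested gene of the 10 members and the 10 pathway lists, one row of points for each list, with genes past the adjusted threshold in red and named. Beside SOD2 at 4.48, the called genes run from SLC3A2 at -1.02 to MAFF at 2.82.

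Among sources of superoxide, 15 of the 20 genes had 3 counts or fewer in every library. The catalytic NADPH oxidase genes CYBB, NOX1, NOX3, NOX4, NOX5 and DUOX2 had 0 counts in all 6, and DUOX1 had 1 count in untreated replicate 2. Abundant genes were CYBA, the membrane partner of several oxidases, at 531 ± 61.8 and 630.05 ± 91.7 CPM, and the small GTPase RAC1 at 413 ± 12.96 and 504 ± 21.9 CPM. RAC1 did not overlap between groups, yet its log2 fold change of 0.29 did not pass the test (edgeR adjusted p 0.341). The other tested sources, named after their values were seen, were low and did not overlap between groups. Over all genes tested, 25.9% did not overlap. AOX1, aldehyde oxidase, had 10.9, 10.04 and 7.24 CPM in untreated libraries and 4.03, 4.49 and 0.852 CPM with treatment. The last value came from 3 counts. The log2 fold change of AOX1 was -1.56 (edgeR adjusted p 0.106, called in 3 of 14 alternatives). RAC2, the blood cell relative of RAC1, had 1 to 7 counts in untreated and 10 to 14 counts in treated libraries (log2 fold change 1.62, edgeR adjusted p 0.129, called in 1 of 14 alternatives). Among the other peroxidases the most abundant were PRDX4 and PRDX6, with log2 fold changes of -0.04 and -0.31 (edgeR adjusted p 0.933 and 0.406).

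Of 7 tested genes of glutathione supply, 1 was higher and 1 lower, and of 8 tested glutathione transferases 2 were higher, where 8.14% of all genes tested were called in either direction. GCLM, the modifier subunit of the enzyme that starts glutathione synthesis (chromosome 1, 93885199 to 93909456), had 37.0, 34.5 and 33.0 CPM in untreated and 76.0, 107 and 111 CPM in treated libraries. It rose by 1.49 on the log2 scale (SE 0.21, edgeR adjusted p 0.00221), and it was called in all 14 alternatives. SLC3A2, the heavy chain shared by the cystine and large neutral amino acid exchangers (chromosome 11, 62856004 to 62888880), went the other way, from 409, 399 and 376 CPM to 207, 165 and 212 CPM. It fell by 1.02 on the log2 scale (edgeR adjusted p 0.00553, called in all 14 alternatives). The cystine-binding light chain SLC7A11 had 9 counts or fewer in every library and was not tested.

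GSTK1, the kappa class glutathione transferase of mitochondria and peroxisomes (chromosome 7, 143244093 to 143270854), rose from 177, 174 and 240.1 CPM to 542, 471 and 666 CPM. Its log2 fold change was 1.504 (edgeR adjusted p 0.00221), and every alternative called it. GSTO1, the omega class enzyme, had 459 ± 72.7 and 844 ± 185 CPM, a log2 fold change of 0.88 (edgeR adjusted p 0.0331). That call was lost without untreated replicate 1 (0.0523) or 2 (0.108) and without treated replicate 1 (0.0779) or 3 (0.143). GSTP1, the most abundant transferase of the list, had 2441 ± 388 and 2115 ± 290.1 CPM and was not called (log2 fold change -0.21, edgeR adjusted p 0.624).

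Of 16 other thiol genes tested, 1 was called higher and 1 lower, against 8.14% of all genes tested in either direction. MSRB1, a selenoprotein which reduces oxidised methionine in proteins (chromosome 16, 1938229 to 1943199), went from 171, 192 and 108 CPM to 685, 539 and 542 CPM. All 3 treated libraries lay above all 3 untreated ones, and the log2 fold change was 1.91 with SE 0.24 (edgeR adjusted p 0.00125, called in all 14 alternatives). TXNRD2, the mitochondrial thioredoxin reductase and likewise a selenoprotein (chromosome 22, 19875517 to 19941820), had 70.0 ± 10.4 and 41.4 ± 4.16 CPM. Its log2 fold change of -0.76 was close to the threshold (edgeR adjusted p 0.0468). It was called in 4 of 14 alternatives, and among fits that left out 1 library only the fit without untreated replicate 3 kept the call; without treated replicate 3 the adjusted p was 0.204.

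Of the tested genes, 2 of 10 on the list of NRF2 regulators and 2 of 14 on the list of NRF2 targets were called higher, against 5.58% of all genes tested. Each list has 1 gene whose call was lost in several alternatives, NFE2L1 in 5 of 14 and HMOX2 in 4 of 14. MAFF, a small Maf protein that pairs with NRF2 and its relatives on DNA (chromosome 22, 38200767 to 38216507), had 8.34, 4.63 and 3.62 CPM in untreated and 37.7, 29.2 and 50.5 CPM in treated libraries. It had the largest log2 fold change of the 10 called pathway genes, 2.82 (SE 0.36, edgeR adjusted p 0.00133). NFE2L1, the related factor NRF1, had 62.1 ± 7.08 and 108 ± 14.6 CPM (log2 fold change 0.79, edgeR adjusted p 0.0331). Its call was lost without untreated replicate 1 (0.0960) or 2 (0.174), without treated replicate 1 (0.113) or 3 (0.134), and with library totals alone (0.058). NFE2L2, the gene of NRF2 itself, varied from 8.08 to 42.1 CPM among untreated and from 15.0 to 52.3 CPM among treated libraries, and was not called (log2 fold change 0.60, edgeR adjusted p 0.684).

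AKR1B1, aldose reductase, which reduces glucose and lipid aldehydes (chromosome 7, 134442356 to 134459284), was the most abundant gene of all the lists. It had 3109, 3628.5 and 2734 CPM in untreated and 7357, 6770.5 and 8019 CPM in treated libraries. The groups did not overlap, and the log2 fold change was 1.22 (SE 0.16). Its edgeR adjusted p was 0.00158, and all 14 alternatives called it. HMOX2, the constitutive haem oxygenase, stood on the list of targets beside HMOX1 although it is not a classical one. AKR1B1 was the only other gene of that list called. Genes placed on other lists, GCLM among them, were not counted as targets here. HMOX2 had 210 ± 50.1 and 404 ± 50.1 CPM (log2 fold change 0.95, edgeR adjusted p 0.0275). Its call was lost without untreated replicate 2 (0.0697) and without treated replicate 1 (0.101), 2 (0.0698) or 3 (0.0809).

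**Figure D5:**
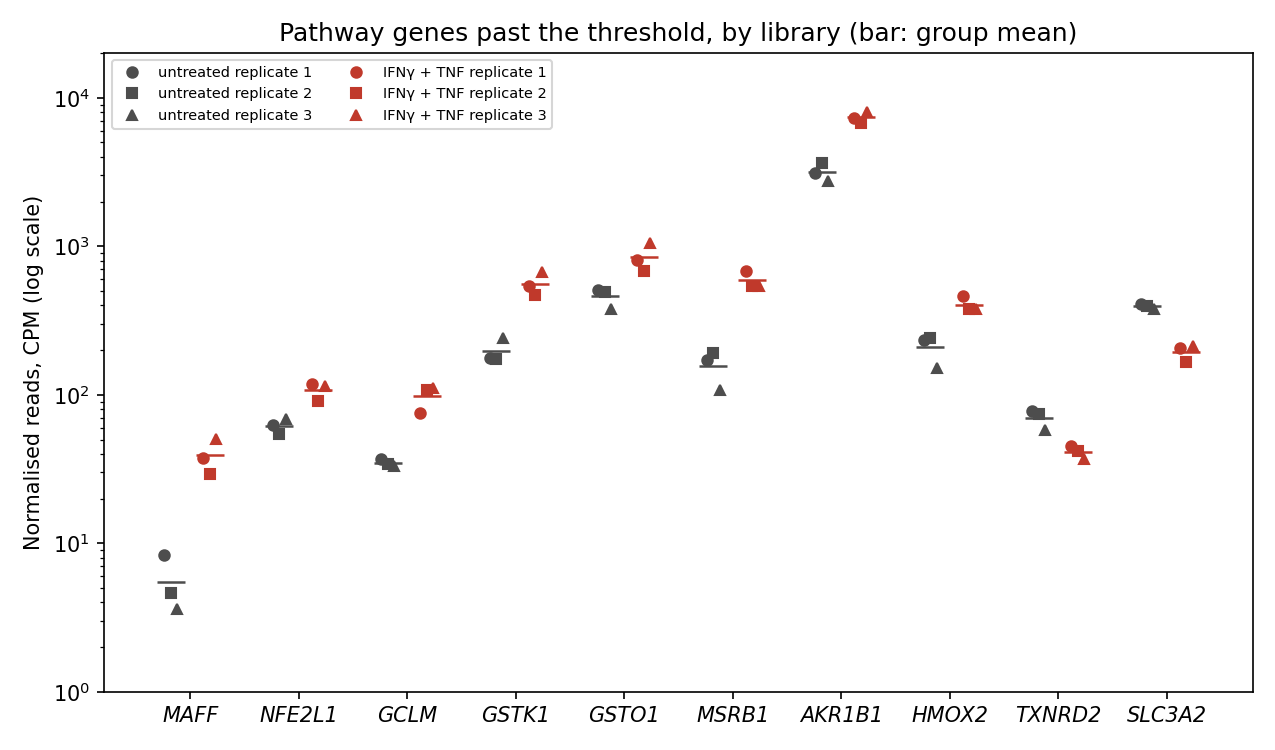
Normalised reads in CPM (log scale) for the 10 pathway genes past the adjusted threshold, one point for each library, with shapes for replicates 1 to 3 and a short bar at the group mean. Treated libraries lie above untreated ones in the first 8 genes and below them in TXNRD2 and SLC3A2.

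Library totals ran from 3626000 to 4406296 reads counted to genes, a ratio of 1.22. Of 10 renal carcinoma and epithelial markers, 8 had more than 3 counts in at least 1 library, among them PAX8, KRT8, KRT18, VIM and CA9, while LRP2 and AQP1, markers of mature tubule, had 0 counts throughout. Their summed level ran from 7229 to 9129 CPM in untreated and from 11367 to 16057 CPM in treated libraries, with VIM (4389 to 4952, then 6297 to 8076 CPM) and NNMT (932 to 1061, then 2488 to 3897 CPM) the largest parts of the difference. The lineage marker PAX8 went the other way, from between 126 and 158 CPM to between 71.0 and 93.2 CPM, and KRT8, KRT18, PAX2 and CA9 overlapped between groups. All 5 endothelial markers and 5 of 7 leukocyte markers, PTPRC among them, had 0 counts, and the other 2 leukocyte markers had at most 1 count in a library. Of 6 fibroblast markers, COL1A1 and PDGFRB were detected and DCN, LUM, COL1A2 and PDGFRA had 0 counts, with a summed level of 54.6 to 73.9 CPM in untreated and 27.3 to 48.9 CPM in treated libraries; their part in the results was not tested.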

How the data were processed

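The deposited values are raw read counts per gene, 1 file for each of the 6 libraries. Per the file headers, the authors used featureCounts 2.0.1 in long-read mode with strand-specific counting over exons of Ensembl release 105 (GRCh38), with no option for multi-mapping or multi-overlap reads. The submitters' processing notes name minimap2 2.24, SAMtools 1.16 and featureCounts 2.0.0. Groups and replicate numbers came from sample titles; alignment names in the headers carry the word dmso, which the labels do not mention. The labels call the replicates biological, and p-values measure the spread between these cultures.

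Symbols came from a gene name table (61369 of 61541 identifiers) and, for 159 more, SOD2 among them, from GENCODE 29. Genes were tested in edgeR 4.0.16 (R 4.3.3): quasi-likelihood F test, TMM, filterByExpr, group as sole term, threshold 0.05. SE was derived from the fold change and its F value (log2 size over root F), and 95% intervals use the test's degrees of freedom. Tests ran first on simulated counts. Shares and ratios were compared by 2-sided exact permutation (scipy 1.17.1). Per list, genes past the threshold (at most 8) and the 2 most abundant were named, and the 5 genes most like SOD2 by each measure; others were chosen after their values were seen. The members and lists were chosen with earlier results of these data known. Alternatives were DESeq2 size factors, library totals, other filters, a replicate block, DESeq2 1.42.0, limma voom 3.58.1, leaving out each library, and genes without shared exon bases.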

Additional observations from a re-analysis of the deposited data

How the results depend on the processing

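SOD2 was called higher in all 13 alternatives that tested it (log2 fold change 4.07 to 4.74); the fit to genes that share no same-strand exon bases does not hold it. None of the other 8 tested members was called in any of 14 alternatives. Near-zero differences changed sign: with library totals alone, which placed the median of all genes at -0.13, SOD1 was -0.061, GPX4 -0.11 and PRDX1 -0.10; GPX4 was also -0.032 under limma voom and -0.027 under the replicate block. Without 1 library, GPX4 ran from -0.22 to 0.22, PRDX1 from -0.016 to 0.057, PRDX4 from -0.075 to 0.031, TALDO1 from -0.20 to 0.033, SNX9 from -0.23 to 0.29 (and -0.02 with library totals), PIR from -0.29 to 0.53 and LHFPL2 from -0.068 to 0.80. The log2 ratio of TXNRD1 to TXN differed by -0.25 to 0.034, and that of NQO1 to TXNRD1 by -0.22 to 0.043. The cause of these changes was not tested.

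Over all genes, 819 were called (562 higher, 257 lower). Every gene with at least 1 count gave 1328 (849 higher, 479 lower), with more genes tested. Leaving out 1 library, which leaves fewer samples, gave 455 to 1178 calls (358 to 733 higher, 96 to 445 lower). The count was 455 without treated replicate 3 and 465 without untreated replicate 2. It rose to 1178 without untreated replicate 3. By chi-square per degree of freedom on counts, that library differed from untreated replicates 1 and 2 at 24.7 and 21.5. Those 2 differed from each other at 3.48, and pairs of treated replicates at 10.3 to 15.9. The cause of this difference was not tested. On the pathway lists, 5 to 9 genes were higher and 1 to 7 lower without 1 library, against 8 and 2. The higher count was 5 without untreated replicate 2, treated replicate 1 or treated replicate 3. The lower count was 7 without untreated replicate 3 and 1 without untreated replicate 2 or any 1 treated replicate. The lower count was 1 with DESeq2 size factors, limma voom and genes without shared exon bases, and 4 with library totals alone and with every gene with at least 1 count. Lists with no call gained some: superoxide sources 1 with every gene with at least 1 count and 2 with the replicate block, NADPH supply 1 with library totals alone and 2 with the block, and dismutase metal supply 1 with library totals alone.

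The labels state no pairing of cultures, so the numbers were not taken to pair them in the main fit. Same-numbered libraries correlated in their deviations from the group means at 0.65, -0.0037 and 0.37 for replicates 1, 2 and 3. Not every library correlated best with its own number, and these values do not decide whether the cultures were paired. With the replicate block, 1513 genes were called (907 higher, 606 lower), 13 higher and 5 lower on the pathway lists, and no member changed its call (TXN adjusted p 0.0534). At this depth, levels of 3 counts or fewer cannot be told from 0, that is 0.681 to 0.827 CPM by library before TMM factors.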

Other observations

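Replicate 3 of each group held the highest level of several stress genes, which were chosen after their values were seen. HMOX1, the inducible haem oxygenase, had 110.0, 115 and 346 CPM in untreated and 72.8, 64.5 and 549.8 CPM in treated libraries. SQSTM1, the autophagy receptor p62 that binds KEAP1, had 448, 469 and 685 CPM in untreated and 726, 574 and 1607 CPM in treated libraries. TXNIP, which binds thioredoxin, had 53.7, 54.0 and 124 CPM in untreated and 111, 163 and 216 CPM in treated libraries. None of these 3 passed the edgeR test (adjusted p 0.921, 0.233 and 0.132), and 0, 2 and 4 of 14 alternatives called them.

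Some genes of the lists were listed at 0 counts in all 6 libraries. For PRDX2, a cytosolic peroxiredoxin, no exonic base was shared with another gene on its strand. For SRXN1, sulfiredoxin, 97.8% of the 500 bases nearest the 3′ end were shared. The counting settings in the file headers name no option to count reads in shared exons. The cause of these counts of 0 was not tested.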
